A study of Mus musculus with 14 samples.

Results

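The nuclear-encoded subunits of oxidative phosphorylation were followed through RNA-seq of sorted mouse hippocampal cells. They were taken by symbol, from the rows of the count table whose Ensembl gene maps to a protein-coding gene beginning with Ndufa, Ndufb, Ndufc, Ndufs, Ndufv, Uqcr, Cox4i, Cox5, Cox6, Cox7, Cox8 or Atp5, or named Sdha, Sdhb, Sdhc or Sdhd, without the Ndufaf assembly factors. The rule gave 85 genes of 43346 rows in the table. They comprise 36 genes of complex I, 4 of complex II, 8 of complex III, 20 of complex IV (Ndufa4 and Ndufa4l2 are placed there) and 17 of complex V. Of these, 83 were among the 18676 genes tested; Cox7b2 and Cox8c were too low, and Cox8c had no count in any library.

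Oxidative phosphorylation is carried out by 5 protein complexes of the inner mitochondrial membrane. Complexes I and II pass electrons from NADH and succinate to ubiquinone, complex III hands them to cytochrome c, complex IV gives them to oxygen, and complex V, the ATP synthase, makes ATP from the proton gradient built by complexes I, III and IV. Most subunits are encoded by nuclear genes, many of them short and highly expressed, while a few catalytic subunits of complexes I, III, IV and V come from mitochondrial DNA. In the adult hippocampus, newborn granule cells take up oxidative metabolism as they leave the stem cell state, and neurons depend on it for firing and synaptic transmission.

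Each library was made from about 800 to 1000 live GFP-positive cells of the hippocampus, which the labels call adult-born granule cells (abGCs), of C57BL/6 wild-type mice at day 14, with the SMART-Seq v4 kit for polyadenylated RNA. The 14 libraries formed 4 groups, all given CNO (clozapine N-oxide, the drug that activates a DREADD, a designer receptor). The groups were CAG-GFP Sham (GFP only, no seizures, n = 3), CAG-GFP Pilo (GFP only, seizures, n = 4), DREADD Sham (DREADD, no seizures, n = 4) and DREADD Pilo (DREADD, seizures, called silenced in the labels, n = 3). Seizures were induced with pilocarpine at 300 mg/kg after scopolamine methyl nitrate and terbutaline, and ended with diazepam; the labels do not say which of these agents the Sham groups received. No group without CNO was analysed here, and the labels do not say whether libraries of a group come from separate animals, so that p-values measure the spread between these libraries only.

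The library names in the labels are spelled in 2 styles, which are used here as library sets 1 and 2 without a known meaning. Set 1 takes in every CAG-GFP Sham library, together with DREADD Sham 1 and 2 and with CAG-GFP Pilo 3 and 4. Set 2 takes in every DREADD Pilo library, together with DREADD Sham 3 and 4 and with CAG-GFP Pilo 1 and 2. Total counts ran from 10613291 to 38614639. Processed and other pseudogenes took 0.117% to 0.200% of the counts in set 1 and 4.33% to 8.12% in set 2. Between 14512 and 20863 genes had a count in each library except CAG-GFP Pilo 4, with 9372. The summed level of 10 granule cell and neuroblast markers was 78.2 to 1477 CPM (counts scaled to the size of the library). Of these markers, Dcx and Prox1 were both at 0 in CAG-GFP Pilo 4 and DREADD Pilo 3. They were also low in CAG-GFP Sham 1 to 3, with Dcx at 0, 6.56 and 1.68 CPM and Prox1 at 12.7, 5.63 and 14.6 CPM. Other markers of the list differed. In CAG-GFP Sham 1 to 3, Stmn2 was at 140, 177 and 210 CPM and Calb1 at 67.8, 51.0 and 64.4 CPM. CAG-GFP Pilo 4 had 55.0 CPM of Stmn2 and 251 CPM of Calb1. All 10 markers summed to 267, 259 and 340 CPM in CAG-GFP Sham and to 414 CPM in CAG-GFP Pilo 4. Dcx was highest in DREADD Sham 3 (271 CPM) and Prox1 in CAG-GFP Pilo 2 (238 CPM). The 7 ependyma and choroid plexus markers summed to 183505 CPM in DREADD Pilo 3 against 349 to 17033 elsewhere, and the 12 astrocyte markers to 27770 to 29236 CPM in CAG-GFP Sham against 771 to 6435 in the other groups. In such bulk libraries, fewer cells of a type and less RNA per cell cannot be told apart.

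The subunit genes were at their highest in CAG-GFP Sham. Their summed level was 72494, 66375 and 83423 CPM in the 3 CAG-GFP Sham libraries. It was 12510 (replicate 1), 13524, 27485 and 19831 CPM in CAG-GFP Pilo, and 18190, 23042, 5769 and 5380 CPM in DREADD Sham. In DREADD Pilo it was 5447, 7015 and 37575 CPM. No library of another group reached the lowest CAG-GFP Sham library, and the 2 libraries of set 1 lay above the 2 of set 2 in CAG-GFP Pilo and in DREADD Sham alike. Outside CAG-GFP Sham, DREADD Pilo 3, the library rich in choroid plexus markers, had the highest TMM-scaled sum. As a share of total counts, however, that library (2.69%) lay below CAG-GFP Pilo 3 (3.25%), DREADD Sham 2 (2.97%) and CAG-GFP Pilo 4 (2.75%). In CAG-GFP Sham the share was 5.15%, 4.73% and 5.69%, and in the other libraries of set 1 it was 2.23% to 3.25%. The TMM factors were 0.683 to 0.713 in CAG-GFP Sham and 1.18 to 1.39 in those other libraries. The gap between them is therefore wider in CPM than in shares.

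**Figure D1:**
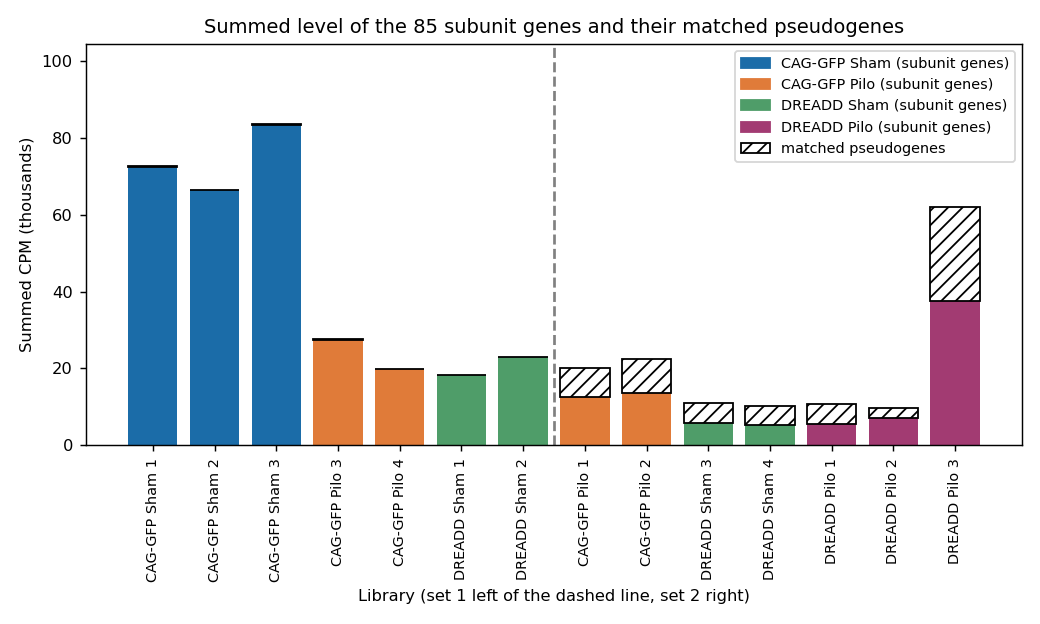
Summed level of the 85 subunit genes (coloured bars, in units of 1000 CPM) and of their matched pseudogenes (hatched, stacked on top) in each library, with library set 1 left of the dashed line and set 2 right. The CAG-GFP Sham bars stand at 66375 to 83423 CPM; pseudogenes are visible only in set 2 and are largest in DREADD Pilo 3.

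Every complex had its highest sums in CAG-GFP Sham, and complex II spanned the narrowest range. Complex I summed to 26086 to 33242 CPM in CAG-GFP Sham, 3382 to 9248 in CAG-GFP Pilo, 1279 to 7662 in DREADD Sham and 1364 to 10805 in DREADD Pilo. Complex II, the succinate dehydrogenase of the citric acid cycle, summed to 2402 to 2512 CPM in CAG-GFP Sham, 893 to 1172 in CAG-GFP Pilo, 727 to 1228 in DREADD Sham and 760 to 1946 in DREADD Pilo (lowest 759.9). Its libraries outside CAG-GFP Sham thus lay closer together than those of complex I, and the library sets overlapped in both groups that hold both.

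Per kilobase of transcript, the scale on which genes can be compared, the most abundant subunits of CAG-GFP Sham were small proteins of complexes III and IV and of the ATP synthase stalk. Cox4i1, the regulatory subunit 4 of cytochrome c oxidase, had a mean of 5770.1 CPM per kb, Uqcr11, a small subunit of complex III, 4649, Cox6c 4187, Cox8a 3919.9 and Atp5h, subunit d of the ATP synthase stalk, 3750.5. Far lower were the complex I core subunits Ndufs1, which carries iron-sulfur clusters, at 72.6 and Ndufv1, which binds NADH, at 100.3 CPM per kb. Tissue-restricted paralogs were low in most libraries. Cox4i2 ran from 0 to 19.6 CPM over the 14 libraries, Cox6a2 from 0 to 10.7, Cox7a1 from 0 to 23.5 and Cox6b2 from 0.497 to 82.4. The heart and muscle form Cox8b was at most 9.59 CPM in 13 libraries and 155 CPM in DREADD Pilo 3. Ndufa4l2, a paralog of Ndufa4 known to be induced by low oxygen, was at or under 0.779 CPM in most libraries. The exceptions were DREADD Sham 3 and 4 and DREADD Pilo 2, with 15.1, 25.1 and 28.1 CPM, all of library set 2. These libraries also had the highest sums of 6 pericyte and smooth muscle markers, 1064, 1333 and 720 CPM. The other libraries had 10.1 to 343 CPM of these markers, and their part in the Ndufa4l2 levels was not tested.

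**Figure D2:**
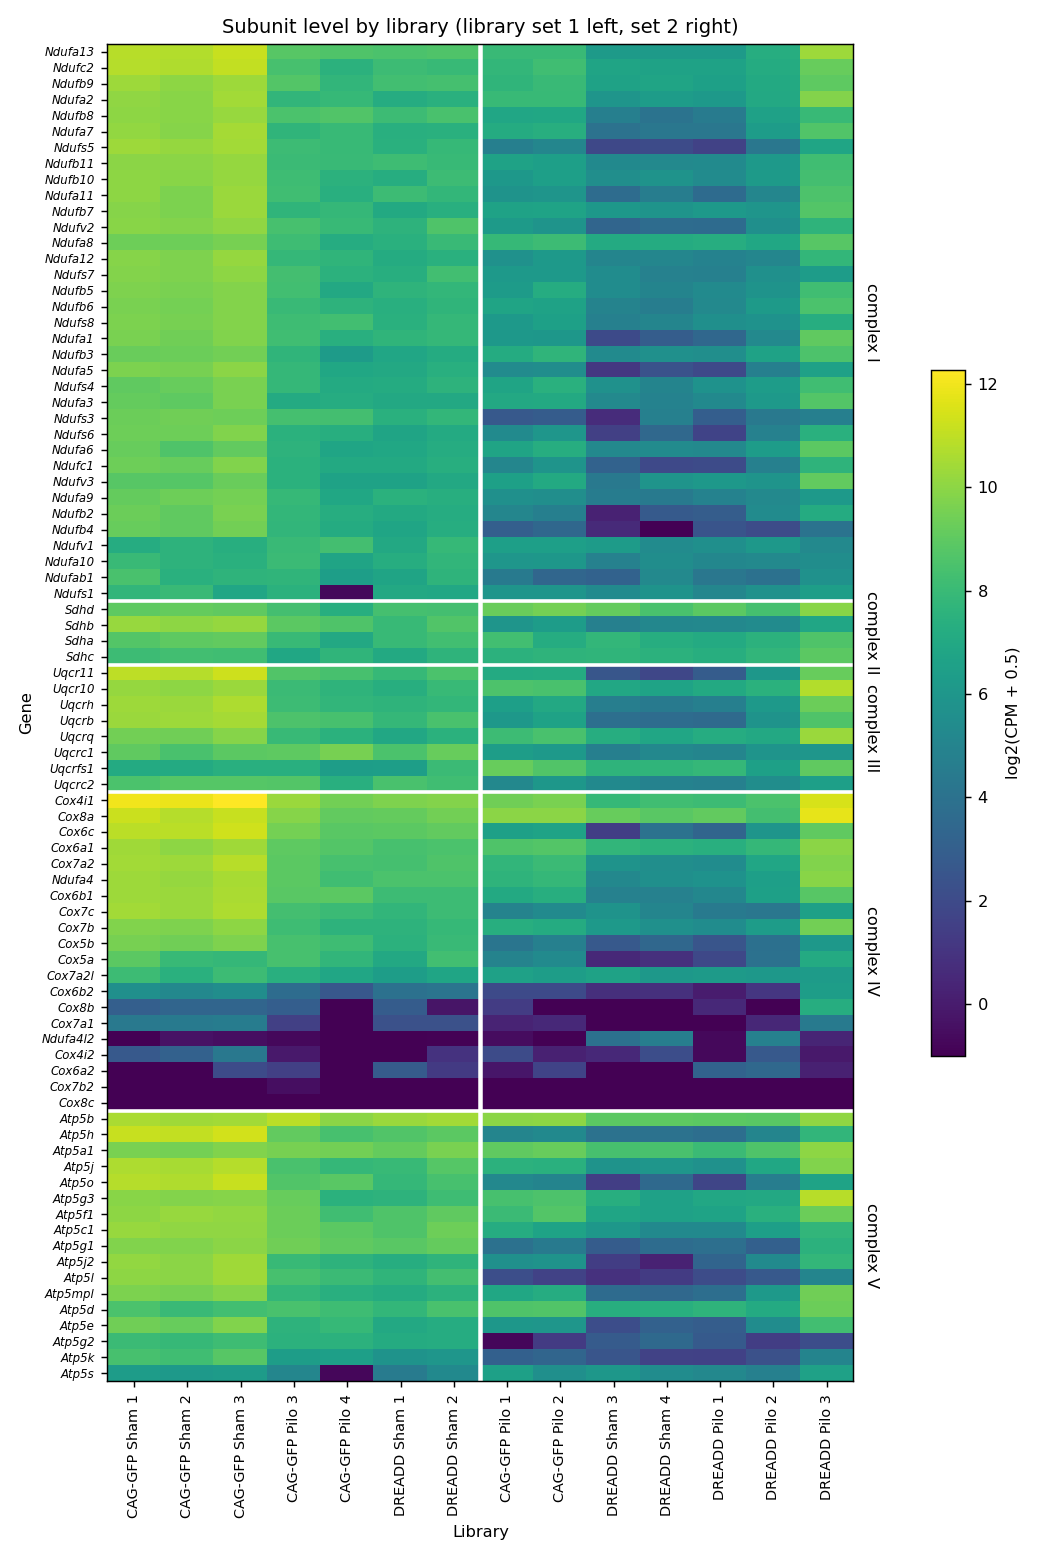
Level of 84 of the 85 subunit genes (rows, grouped by complex) in each library (columns, set 1 left of the white line and set 2 right), as log2(CPM + 0.5). CAG-GFP Sham is brightest for most genes, though not for Uqcrfs1, Cox8b or Ndufa4l2; genes such as Atp5l, Ndufb4 and Atp5g2 are dark in all of set 2, while Sdhd, Uqcrfs1 and Atp5b are not.

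The first comparison asks what seizures do in cells with GFP only. In CAG-GFP Pilo against CAG-GFP Sham, 79 of 83 subunit genes had a negative log2 fold change, with a median of −2.15 where the median of all genes tested was 0.41. None passed the test (edgeR's quasi-likelihood test, Benjamini-Hochberg adjustment over all genes, threshold 0.05), against 0.241% of all genes. Unadjusted p was under 0.05 for 44 of 83 and for 15.4% of all genes, and DESeq2 called 15 (11.8% of all genes) and limma voom 45 (4.16%). In 68 of 83, every CAG-GFP Pilo library was below every CAG-GFP Sham library, a pattern held by 12.2% of all genes. The median was −2.35 over complex I, −0.97 over complex II, −1.76 over complex III, −2.14 over complex IV and −1.71 over complex V.

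Ndufc2 (chr7:97400003-97407802, plus strand, GRCm38), an accessory subunit of the membrane arm of complex I, came nearest to a call. It was at 1749, 1626 and 2105 CPM in CAG-GFP Sham, against 219, 295, 334 and 182 CPM in CAG-GFP Pilo 1 to 4. The groups did not overlap, and the lowest CAG-GFP Sham library stood far above the highest CAG-GFP Pilo library. The log2 fold change was −2.82 ± 0.63 (SE), with an adjusted p of 0.0946 in edgeR. Ndufb7, an accessory subunit on the intermembrane space side, had 919, 795 and 1219.8 CPM in CAG-GFP Sham, against 98.6, 102, 207 and 228 CPM in CAG-GFP Pilo (−2.62 ± 0.70). Ndufb10, of the membrane arm, had 1027, 971 and 1154 CPM against 67.5, 89.9, 288 and 182 CPM (−2.74 ± 0.80). Neither gene overlapped between the groups, and edgeR's adjusted p was 0.174 for Ndufb7 and 0.232 for Ndufb10.

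A few members departed from this pattern. Atp5b, the catalytic beta subunit of the ATP synthase, was at 1543, 1336 and 1387 CPM in CAG-GFP Sham, against 986, 1039.8, 1888 and 999 CPM in CAG-GFP Pilo. Its groups overlapped, and its log2 fold change was −0.21 ± 0.52. Sdhd, a membrane anchor of complex II, had 497, 568 and 529 CPM in CAG-GFP Sham, against 603, 727, 315 and 162 CPM in CAG-GFP Pilo (−0.23 ± 0.55). Uqcrfs1, the Rieske iron-sulfur protein of complex III, had 138, 136 and 164 CPM against 574, 403, 164 and 83.3 CPM, the 2 libraries of set 2 being highest (1.07 ± 0.71). None of these 3 passed the test.

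The second comparison asks what the DREADD with CNO does without seizures. DREADD Sham against CAG-GFP Sham uses the same CAG-GFP Sham libraries as the comparison above. Of 83 subunit genes, 80 had a negative log2 fold change, and the median was −2.74 (0.53 over all genes). Ndufc2 was the 1 member of 83 that passed the test, as lower, against 0.300% of all genes called in either direction. Unadjusted p was under 0.05 for 55 of 83 and for 18.6% of all genes, and DESeq2 called 37 (14.2% of all genes) and limma voom 57 (4.59%). Every DREADD Sham library was below every CAG-GFP Sham library in 70 of 83, against 12.7% of all genes. The medians by complex were −2.82, −0.89, −2.65, −2.70 and −2.33 from complex I to complex V.

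Ndufc2 read 274, 242, 107 and 101 CPM in DREADD Sham 1 to 4, all below CAG-GFP Sham, with the lower pair in library set 2. Its log2 fold change was −3.33 ± 0.64, and edgeR's adjusted p of 0.0451 ranged from 1.3e-05 to 0.256 over the alternatives. The call did not survive the loss of 1 library: with any 1 of the 7 libraries of the comparison removed, the number of members called was 0. Ndufb7 had 135, 163, 67.0 and 58.3 CPM in DREADD Sham (−3.21 ± 0.71). Ndufa2, an accessory subunit of the peripheral arm of complex I, had 1079.7, 961 and 1362 CPM in CAG-GFP Sham, against 148, 173, 60.9 and 80.0 CPM in DREADD Sham (−3.29 ± 0.73). For both, the groups did not overlap and edgeR's adjusted p was 0.0701.

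**Figure D3:**
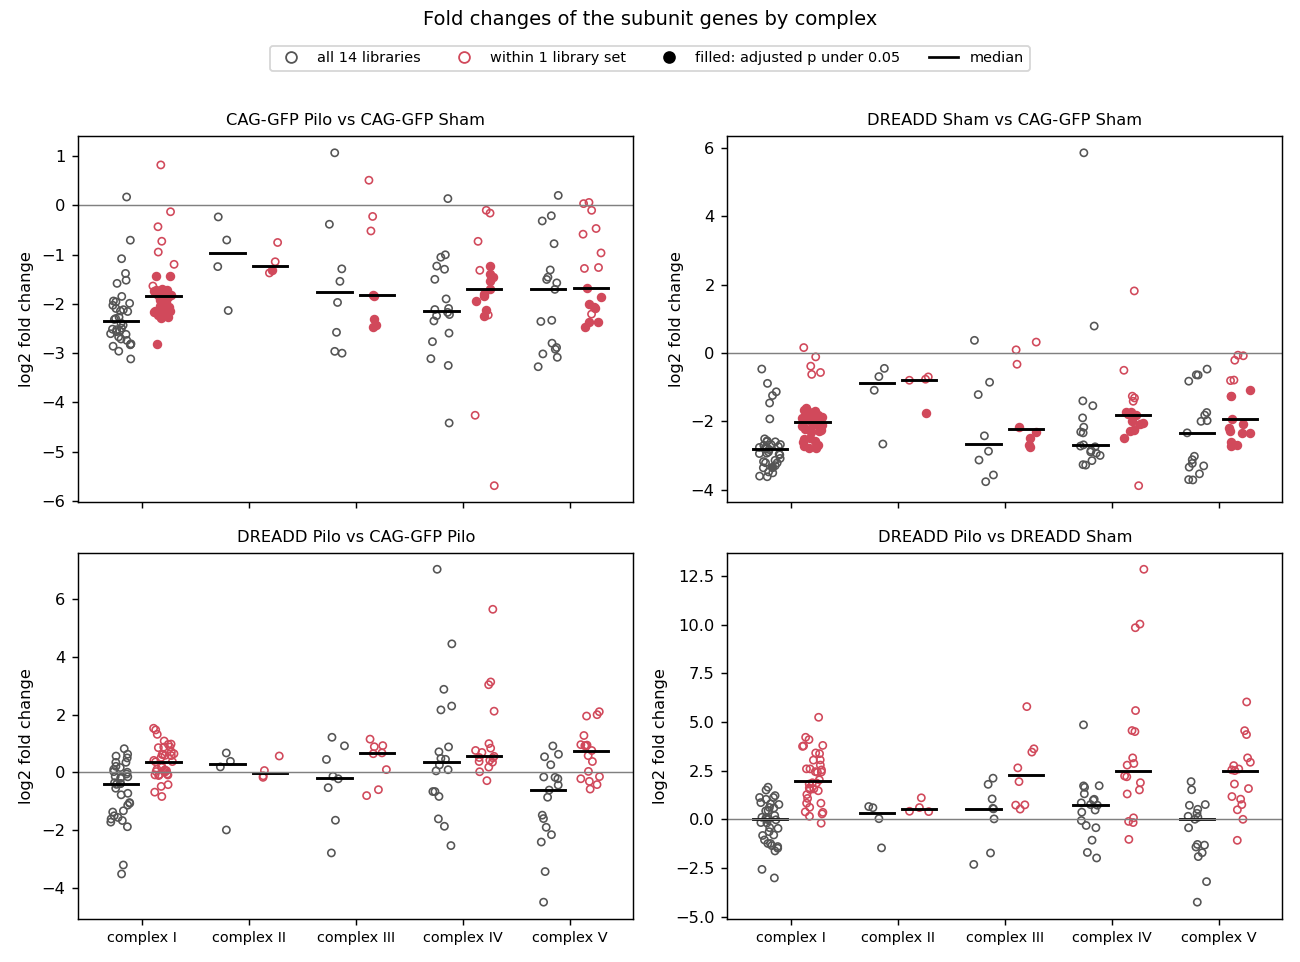
Log2 fold change of each subunit gene tested, by complex, in 4 comparisons of 2 groups, over all 14 libraries (grey) and within 1 library set (red), with filled symbols where the adjusted p is under 0.05 and black bars at the medians. Filled symbols lie below 0 and, apart from Ndufc2, appear only within library set 1.

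Since the 2 library sets were mixed within CAG-GFP Pilo and within DREADD Sham, their difference was estimated in a fit with group and library set, a comparison added after the data had been seen. In the counts that follow, genes that fell or rose are those past the test, lower or higher. In library set 2 against set 1, 33 of 83 subunit genes fell and 0 rose, against 3.81% of all genes that fell. The median was −2.12, and −0.02 over all genes tested. In 24 of 83, every library of set 2 was below every library of set 1 (3.83% of all genes). The genes that fell were 16 of 36 in complex I, 1 of 4 in complex II, 3 of 8 in complex III, 5 of 18 in complex IV and 8 of 17 in complex V. Leaving out DREADD Sham 4 gave 21 calls, and leaving out DREADD Pilo 3 gave 50. No share of all genes is given for these fits, so the counts do not single out the subunits. Within CAG-GFP Pilo and within DREADD Sham, the sets also differed in cell markers. The 10 oligodendrocyte markers summed to 35263 and 37413 CPM in CAG-GFP Pilo 1 and 2, against 1287 and 4234 in CAG-GFP Pilo 3 and 4. The 7 ependyma and choroid plexus markers summed to 17033 and 16989 CPM in DREADD Sham 1 and 2, against 710 and 457 in DREADD Sham 3 and 4. The part of these markers in the set difference was not tested.

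The steepest fall was that of Atp5l, subunit g of the ATP synthase membrane part. It had 1047, 989.9 and 1353 CPM in CAG-GFP Sham, 339.9 and 264 in CAG-GFP Pilo 3 and 4, and 203 and 313 in DREADD Sham 1 and 2. In set 2 it had 4.04 and 2.58 CPM in CAG-GFP Pilo 1 and 2, 1.34 and 1.96 in DREADD Sham 3 and 4, and 3.77, 6.00 and 32.8 in DREADD Pilo. The sets did not overlap within any group that held both, and the log2 fold change was −6.90 ± 0.73 (edgeR, adjusted p = 3.4e-05). Ndufb4, an accessory subunit of complex I, had 109 to 688 CPM in set 1 and 0 to 16.1 CPM in set 2 (−6.12 ± 1.15, edgeR's adjusted p = 0.0036). Cox5a, a subunit of cytochrome c oxidase, had 129 to 481 CPM in set 1 and 0.932 to 138 CPM in set 2 (−5.24 ± 1.34, edgeR's adjusted p = 0.0270).

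The 3 genes of subunit c, which encode the same mature protein of the rotor ring behind different import signals, differed from each other. Atp5g1 had 462 to 1018 CPM in set 1 and 6.70 to 186 CPM in set 2, a log2 fold change of −5.40 ± 0.88. Atp5g2 had 144 to 280.3 CPM in set 1 and 0.094 to 11.1 CPM in set 2 (−5.70 ± 0.95), and edgeR's adjusted p was 0.0013 for Atp5g1 and 0.0014 for Atp5g2. Atp5g3 had 952, 884 and 918 CPM in CAG-GFP Sham, 585 and 175 in CAG-GFP Pilo 3 and 4, and 190.4 and 280.4 in DREADD Sham 1 and 2. In set 2 it had 343 and 376 CPM in CAG-GFP Pilo, 162 and 95.3 in DREADD Sham, and 125, 128 and 1842 in DREADD Pilo. For Atp5g3 the sets overlapped, and it did not pass the test. Uqcrc1, core protein 1 of complex III, had 353 to 737 CPM in set 1 and 26.3 to 82.1 CPM in set 2, and fell by 3.47 ± 0.39 on the log2 scale. Sdhb, the iron-sulfur subunit of complex II, was the 1 gene of its complex that fell, from 242 to 1213 CPM in set 1 to 27.0 to 115 CPM in set 2 (−3.02 ± 0.43).

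In set 2, counts appeared on processed pseudogenes, intronless copies of an mRNA elsewhere in the genome. A search of the GENCODE pseudogenes against the subunits' coding sequences (at least 90% identity over at least 50% of the coding sequence) matched 58 pseudogenes to 31 of the 85 genes. They summed to 34.9 to 177 CPM in set 1 and to 2777 to 24468 CPM in set 2. The sequences below show how near such copies are to the coding sequence of 3 subunits: each pair gives 120 bases of the spliced coding sequence across an exon junction, and the matching pseudogene stretch, with the differing bases in capitals. Coding positions are counted from the start codon, and all coordinates are GRCm38. Uqcr11 (chr10:80402997-80406830, minus strand, coding bases 1 to 120) is paired with Gm16418 (chr1:166431705-166431875, minus strand, 98.8% identical over the alignment). Cox6c (chr15:35925886-35938246, minus strand, coding bases 58 to 177) is paired with Cox6c2 (chr12:56373593-56373823, minus strand, 96.9%). Atp5o (chr16:91925214-91931687, minus strand, coding bases 269 to 388), the stalk protein that confers oligomycin sensitivity, is paired with Gm5436 (chr12:84258331-84258973, minus strand, 97.0%).
Uqcr11: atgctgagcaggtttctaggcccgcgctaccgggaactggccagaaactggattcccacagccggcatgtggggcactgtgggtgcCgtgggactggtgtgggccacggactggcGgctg
Gm16418: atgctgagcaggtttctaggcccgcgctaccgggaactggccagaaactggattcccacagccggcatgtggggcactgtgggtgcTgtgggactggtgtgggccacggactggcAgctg
Cox6c: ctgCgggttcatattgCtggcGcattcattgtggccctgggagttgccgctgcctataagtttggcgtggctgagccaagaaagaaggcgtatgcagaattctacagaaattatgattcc
Cox6c2: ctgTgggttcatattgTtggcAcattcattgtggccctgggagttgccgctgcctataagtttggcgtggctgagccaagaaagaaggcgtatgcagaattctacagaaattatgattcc
Atp5o: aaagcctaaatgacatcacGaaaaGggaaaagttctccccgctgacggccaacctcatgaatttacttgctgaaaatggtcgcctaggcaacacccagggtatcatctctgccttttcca
Gm5436: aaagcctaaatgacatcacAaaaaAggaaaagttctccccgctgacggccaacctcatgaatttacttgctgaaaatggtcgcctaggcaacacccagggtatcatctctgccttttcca
The pairs differ at 2, 3 and 2 of the 120 bases shown, so that a read within an exon can match gene and copy almost equally well. How the authors' counting treated such reads is not given in the sources used here, and the counts of these genes are therefore uncertain.

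Atp5o was high where its copy had no count, and low where the copy was counted. The gene had 230.1 to 2266 CPM in set 1, where the pseudogene had 0 in all 7 libraries. In set 2 the gene had 2.27 to 105 CPM and the pseudogene 255 to 1374 CPM. Uqcr11 had 1954, 1774 and 2479 CPM in CAG-GFP Sham, 139, 144, 403 and 345 in CAG-GFP Pilo, and 233, 368, 5.30 and 3.04 in DREADD Sham. Its 2 pseudogenes had at most 0.245 CPM in set 1 and 151 to 1724 CPM in set 2. Cox6c had 468 to 2559.8 CPM in set 1 and 2.27 to 519 CPM in set 2, and its 2 copies had 0 in set 1 and 138 to 1654 CPM in set 2. For Atp5h the copies had at most 0.21 CPM in set 1 and 342 to 3196 CPM in set 2, where the gene had 13.5 to 215 CPM. Some copies had counts in set 1 too. That of Ndufs5, an accessory subunit of complex I, had 6.75 to 55.3 CPM there against 206 to 1744 CPM in set 2, those of Cox7c 7.09 to 59.5 against 25.7 to 142 CPM, and those of Ndufab1, the mitochondrial acyl carrier protein, at most 66.2 against 14.9 to 147 CPM.

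**Figure D4:**
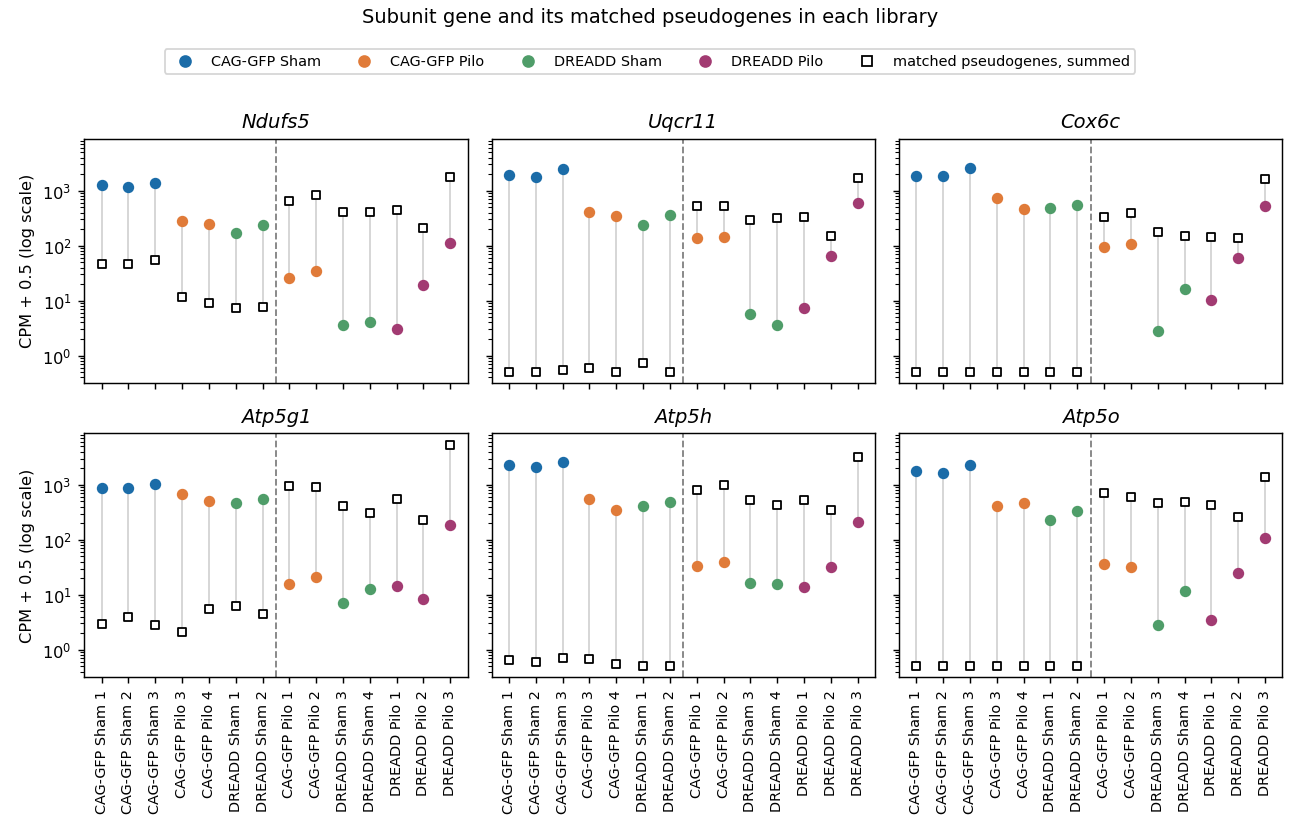
Level of 6 subunit genes (filled circles, coloured by group) and the summed level of their matched pseudogenes (open squares) in each library, as CPM + 0.5 on a log scale, with library set 1 left of the dashed line and set 2 right. In all 7 libraries of set 1 the gene is above its pseudogenes, and in all 7 of set 2 the pseudogenes are above the gene. The 6 genes are chosen examples. For some other genes, such as Ndufa4 and Uqcr10, the copies stayed below the gene in set 2. There they made at most 12.6% and 32.3% of gene and copies together.

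Genes with and without a copy were among those that fell. Of the 31 genes with a matched pseudogene, 19 fell in set 2 (median −2.97), and of the 52 tested without one, 14 fell (median −1.62). With the pseudogene counts added to their gene, the number called was 19 in place of 33, and Atp5g1 went from −5.40 to 0.10. The share of all genes called in that fit is not given here, so the drop cannot be read as particular to the subunits. Atp5l and Ndufb4 had copies with 18.3 to 194 CPM and 2.34 to 26.1 CPM in set 2, while in set 1 the genes themselves had 203 to 1353 CPM and 109 to 688 CPM. The copies of Atp5g2 had at most 1.24 CPM in any library. With the copies added, the sums were 66537 to 83600 CPM in CAG-GFP Sham, against 18228 to 27556 CPM in the other 4 libraries of set 1. In set 2 they were 9792 to 22348 CPM in 6 libraries and 62044 CPM in DREADD Pilo 3. CAG-GFP Sham still lay above all other libraries.

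The difference between the sets also went with exon length. Within DREADD Sham, 2 libraries against 2, the median log2 difference was −2.73 over 83 genes (−0.21 over protein-coding genes): −3.30 over the 42 genes whose longest exon is under 300 bases, −2.51 over the 23 with 300 to under 600 bases and −1.77 over the 18 with 600 bases or more. Within CAG-GFP Pilo it was −1.17 over 83 genes (0.22 over protein-coding genes), and −1.69, −0.44 and −0.49 over the same classes. Spearman's rho between longest exon and difference was 0.465 in DREADD Sham and 0.316 in CAG-GFP Pilo over 83 genes, and 0.187 and 0.151 over 14600 protein-coding genes; the points share the same 4 libraries. What the sets differ in, and its part in these values, was not tested.

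**Figure D5:**
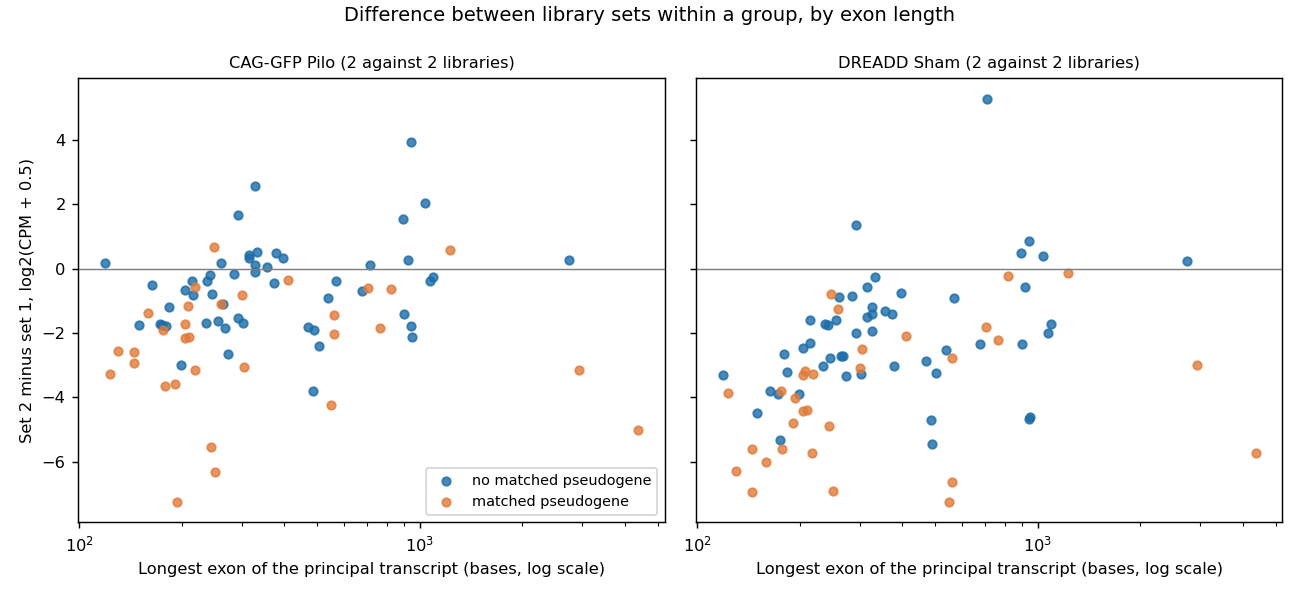
Difference between library set 2 and set 1 within CAG-GFP Pilo (left) and DREADD Sham (right), on the log2(CPM + 0.5) scale, against the longest exon of each subunit gene (log scale), with genes that have a matched pseudogene in orange. Genes with short exons and genes with pseudogenes lie lowest, with medians of −3.30 in DREADD Sham and −1.69 in CAG-GFP Pilo for longest exons under 300 bases.

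All CAG-GFP Sham libraries belong to set 1, so the comparisons with CAG-GFP Sham were repeated within set 1, a choice made after the data had been seen. CAG-GFP Pilo 3 and 4 against the 3 CAG-GFP Sham libraries gave 50 of 82 subunit genes that fell and 0 that rose, against 2.09% of all genes that fell. Their median was −1.80, and −0.19 over all genes. The genes that fell were 26 of 36 in complex I, 1 of 4 in complex II, 5 of 8 in complex III, 10 of 17 in complex IV and 8 of 17 in complex V. DREADD Sham 1 and 2 against the same CAG-GFP Sham libraries gave 58 of 82 that fell and 0 that rose, against 7.20% of all genes, with a median of −1.94 (0.21 over all genes). By complex these were 31 of 36, 1 of 4, 5 of 8, 10 of 17 and 11 of 17. The CAG-GFP Sham libraries were much alike, with correlations between them of 0.897 to 0.902. Over both library sets the correlations were 0.545 to 0.781 in CAG-GFP Pilo and 0.546 to 0.833 in DREADD Sham. The close agreement of the controls enters the spread of the fits within set 1. Its part in the number of calls was not tested.

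The calls of CAG-GFP Pilo depended on each control library: without any 1 of the 3 CAG-GFP Sham libraries the number called was 0, while the median stayed between −2.02 and −1.59. Fits without CAG-GFP Pilo 3 or without CAG-GFP Pilo 4, the library with few genes detected, keep 1 CAG-GFP Pilo library. That library is then assumed to vary like CAG-GFP Sham, so the calls of these fits are not given. With library totals in place of TMM, the number called was 18. The share of all genes called in that fit is not given here, so the count does not single out the subunits. For DREADD Sham, leaving out any 1 of the 5 libraries gave medians of −2.23 to −1.82. The astrocyte markers moved with both comparisons: within set 1, 5 of 12 fell in CAG-GFP Pilo (median −5.67) and 12 of 12 in DREADD Sham (median −3.52). The oligodendrocyte markers moved the other way, with 1 of 10 that rose in CAG-GFP Pilo (median 1.65) and 10 of 10 in DREADD Sham (median 4.31), as did those of their precursors, with 1 of 7 and 4 of 7. The 10 oligodendrocyte markers summed to 556 to 697 CPM in CAG-GFP Sham, 1287 and 4234 in CAG-GFP Pilo 3 and 4, and 18749 and 20167 in DREADD Sham 1 and 2. Granule cell and neuroblast markers rose in 1 of 9 and 4 of 10 cases. The part of these markers in the subunits' difference was not tested.

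Within set 1, Ndufc2 fell in both comparisons, with log2 fold changes of −2.81 ± 0.29 in CAG-GFP Pilo and −2.79 ± 0.21 in DREADD Sham. Uqcr11 had −2.43 ± 0.23 and −2.74 ± 0.30, Atp5h −2.37 ± 0.24 and −2.35 ± 0.21, and Cox4i1 −2.13 ± 0.26 and −2.28 ± 0.20, all past the test. Cox4i1 had 4125, 3817 and 4955 CPM in CAG-GFP Sham, 1233 and 706 in CAG-GFP Pilo 3 and 4, and 844 and 889 in DREADD Sham 1 and 2. No library of these 2 groups came near the lowest CAG-GFP Sham value. Ndufa13, an accessory subunit of complex I, had 1835, 1729 and 2251 CPM against 449.8 and 386 CPM and 365 and 399.7 CPM, and Cox8a had 2364, 1778 and 2326 CPM against 929.5 and 542 CPM and 559.9 and 703 CPM.

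Several large subunits did not pass the test within set 1. Uqcrc1 was at 529, 353 and 479 CPM in CAG-GFP Sham, 501 and 737 in CAG-GFP Pilo 3 and 4, and 365 and 576 in DREADD Sham 1 and 2, with log2 fold changes of 0.51 ± 0.31 and 0.10 ± 0.29. Ndufv1 was at 149, 192 and 159 CPM against 256 and 312 CPM and 129 and 233 CPM (0.82 ± 0.29 and 0.16 ± 0.32). Atp5b had log2 fold changes of 0.04 ± 0.26 and −0.06 ± 0.18, and Atp5a1, the alpha subunit of the ATP synthase, −0.10 ± 0.20 and −0.21 ± 0.22. The groups overlapped for Uqcrc1, and for Ndufv1 CAG-GFP Pilo lay above CAG-GFP Sham.

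By role, a split made after the values were seen, the 7 core subunits of complex I, which carry its redox groups, had medians of −1.20 in CAG-GFP Pilo and −1.66 in DREADD Sham, with 3 and 4 of 7 that fell. The 29 accessory subunits had medians of −1.97 and −2.14, with 23 and 27 of 29. In complex V, the 5 subunits of the catalytic F1 part had medians of −0.10 and −0.21, with 1 and 2 of 5 that fell, and the other 12 had −2.04 and −2.15, with 7 and 9 of 12.

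Calls were also counted by transcript length. Of the members with an mRNA under 700 bases, 28 of 35 (80.0%) fell in CAG-GFP Pilo within set 1, of those with 700 to under 1200 bases 15 of 24 (62.5%), and of those with 1200 bases or more 7 of 23 (30.4%). Among all protein-coding genes the shares in the same classes were 20.4%, 8.01% and 1.22%. In DREADD Sham the shares were 82.9%, 87.5% and 34.8% of the members and 45.3%, 27.6% and 4.92% of protein-coding genes. In CAG-GFP Pilo the share that fell declined from the shortest to the longest class among members and among protein-coding genes alike. Spearman's rho between mRNA length and log2 fold change was 0.466 in CAG-GFP Pilo and 0.520 in DREADD Sham over 82 members. Over protein-coding genes it was 0.0473 (n = 13326) and 0.107 (n = 13446). These points share the libraries and the CAG-GFP Sham group, and the part of length was not tested.

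The third comparison asks what the DREADD does after seizures. In DREADD Pilo against CAG-GFP Pilo, edgeR called 0 of 83 subunit genes (0% of all genes), with unadjusted p under 0.05 for 5 (5.36% of all genes). DESeq2 and limma voom also called 0 (0.921% and 0% of all genes). The median was −0.22, and 0.28 over all genes tested. In 4 of 83, every DREADD Pilo library was below every CAG-GFP Pilo library (3.15% of all genes). One of these, Ndufv1, had 48.9, 66.6 and 37.6 CPM in DREADD Pilo and 91.1, 91.0, 256 and 312 CPM in CAG-GFP Pilo (−1.88 ± 0.67). Another, Uqcrc1, had 32.3, 57.9 and 61.3 CPM against 82.1, 70.9, 501 and 737 CPM (−2.78 ± 1.10). In both genes the higher CAG-GFP Pilo libraries were those of set 1, while DREADD Pilo has libraries of set 2 only. Atp5g2 had 6.16, 2.16 and 3.89 CPM against 0.094, 1.93, 182 and 182 CPM (−4.49 ± 1.80). Its groups overlapped, and within set 2 its sign turned (2.00). EdgeR's adjusted p was 0.882 for all 3. Within set 2 the median was 0.52, with 0 members called by edgeR (0% of all genes, unadjusted p under 0.05 for 0, against 6.92% of all genes) and 0 by DESeq2 (3.74% of all genes), and −1.07 without DREADD Pilo 3.

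The fourth comparison asks what seizures do in DREADD cells. In DREADD Pilo against DREADD Sham, edgeR again called 0 of 83 (0% of all genes), with unadjusted p under 0.05 for 6 (5.18% of all genes). DESeq2 and limma voom called 0 (0.846% and 0% of all genes), and the median was 0.10 (0.07 over all genes). In 1 of 83, every DREADD Pilo library was below every DREADD Sham library (2.23% of all genes). The 3 members with the smallest p were Uqcr10, Uqcrq and Atp5g3, and in each of them the difference rested on 1 library. Uqcr10, a small subunit of complex III, had 135, 179 and 1739.9 CPM in DREADD Pilo and 159.8, 243, 125 and 103 CPM in DREADD Sham (2.12 ± 0.73). Uqcrq, which borders the quinone site of complex III, had 147, 129 and 1223 CPM against 124, 178, 155 and 117 CPM (1.80 ± 0.67). Atp5g3 had a log2 fold change of 1.94 ± 0.81. EdgeR's adjusted p was 0.954 for all 3, and without DREADD Pilo 3 their log2 fold changes were −0.03, −0.08 and −0.55. The median of all members went to −1.39 without that library. Within set 2, where DREADD Sham 3 and 4 are the controls, it was 2.03, with 0 members called by edgeR (0% of all genes, unadjusted p under 0.05 for 8, against 7.06% of all genes) and 6 by DESeq2 (4.24% of all genes), and 0.40 without DREADD Pilo 3.

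The seizure effect was not shown to differ between DREADD and GFP-only cells. The test of the difference of the 2 seizure effects called 0 of 83 (edgeR, 0% of all genes), with unadjusted p under 0.05 for 28 (11.7% of all genes). DESeq2 called 8 (7.82% of all genes) and limma voom 0 (0.198%). The median of the difference was 2.26 (−0.43 over all genes). The smallest adjusted p values in edgeR were 0.247 for Ndufc2 (3.44 ± 0.87) and 0.250 for Uqcr10 (4.09 ± 1.04) and Ndufa2 (3.92 ± 0.997). Without DREADD Pilo 3 the median was 0.71.

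Promoters were read for sites of factors known for these genes: NRF1, the ETS factor GABP and YY1. RefSeq promoters (GRCm38.p6, from 250 bases before to 50 after the start) matched 69 of the 85 genes. The central NRF1 letters CGCATGCG were found, on either strand, in 9 (13.0%) and in 2.77% of 17492 protein-coding genes. A gene was counted once if any of its promoters held the letters. The ETS letters CCGGAAG were in 16 (23.2%) against 12.9%, and the YY1 letters AAGATGGC in 10 (14.5%) against 3.57%. The TATA letters TATAAAA were in 3 (4.35%) against 6.01%, and CCAAT in 30 (43.5%) against 42.3%. In all, 29 of 69 held NRF1, ETS or YY1 letters. The share of all protein-coding genes with any of the 3 was not counted, so 29 of 69 cannot be set beside it. In none of these promoters did the letters of any 2 of the 3 factors share bases. The sequences below run from 120 bases before to 30 after the start of 3 genes named above, with the letters found in capitals. Ndufb7 (chr8:83566638-83566787, plus strand) has the ETS letters, Atp5g2 (chr15:102671018-102671167, minus strand) the NRF1 letters and Uqcr11 (chr10:80406792-80406941, minus strand) the ETS letters and, nearer the start, the NRF1 letters.
Ndufb7: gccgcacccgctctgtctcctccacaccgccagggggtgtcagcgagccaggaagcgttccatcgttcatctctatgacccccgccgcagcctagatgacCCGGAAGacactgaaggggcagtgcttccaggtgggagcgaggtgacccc
Atp5g2: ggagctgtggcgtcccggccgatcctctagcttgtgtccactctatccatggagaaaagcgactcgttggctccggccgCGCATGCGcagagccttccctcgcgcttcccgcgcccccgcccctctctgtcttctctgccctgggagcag
Uqcr11: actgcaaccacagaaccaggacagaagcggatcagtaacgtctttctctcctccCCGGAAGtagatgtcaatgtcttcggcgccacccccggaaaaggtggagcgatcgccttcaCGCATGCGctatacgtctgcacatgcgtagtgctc
Counted from the start, the letters begin at position −20 in Ndufb7, −41 in Atp5g2, and −66 and −5 in Uqcr11. These matches describe the sequence and do not show that a factor binds there.

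Other gene lists were counted within set 1, where 2.09% of all genes fell in CAG-GFP Pilo and 7.20% in DREADD Sham. Of the mitochondrially encoded subunits, which share complexes I, III, IV and V with the nuclear ones, 7 of 12 fell in CAG-GFP Pilo (median −3.20) and 7 of 12 in DREADD Sham (median −2.96). Of the assembly factors, 3 of 46 and 12 of 46 fell, with 1 that rose in DREADD Sham. In the citric acid cycle and pyruvate dehydrogenase 1 and 2 of 18 fell, and in glycolysis 2 and 6 of 17. None of the 14 regulators of mitochondrial biogenesis, such as Ppargc1a and Tfam, was called by edgeR within set 1, with unadjusted p under 0.05 for 0 in CAG-GFP Pilo (13.6% of all genes) and 1 in DREADD Sham (26.0%). Cytosolic ribosomal proteins, short and abundant transcripts like those of the subunits, fell in 5 of 82 cases in CAG-GFP Pilo and 67 of 82 in DREADD Sham.

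Between the library sets, ribosomal proteins fell in 68 of 83 cases in set 2 (median −3.94) and glycolysis in 11 of 17 (median −1.70), while 0 of 12 mitochondrially encoded subunits were called (edgeR, unadjusted p under 0.05 for 5 and for 19.8% of all genes, median 1.72). The mitochondrially encoded subunits summed to 123464 to 127797 CPM in CAG-GFP Sham, against sums of 12151 to 15593 CPM in the other libraries of set 1. In set 2 they summed to 19071 to 64425 CPM in 6 libraries and to 261868 CPM in DREADD Pilo 3. Within set 1, CAG-GFP Sham thus had the highest sums of mitochondrial subunits as well.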

How the data were processed

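The authors deposited 1 table of whole-number read counts per Ensembl gene for the 14 libraries. Per the submitters' processing notes, Bowtie2, Subread's featureCounts, R 4.1.1 and edgeR were used, and the build named there is hg38; the gene identifiers are those of mouse, and no source used here gives further settings. Of 43346 rows, 42462 (98.0%) matched mouse GENCODE M21 (GRCm38) by identifier without version, and 884 did not; the 85 subunit genes are all the genes of the rule but 1 GENCODE entry (a second Atp5o identifier) that is not among the rows.

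The counts were tested in R 4.3.3 with edgeR 4.0.16 (TMM scaling, filterByExpr, a quasi-likelihood test in 1 fit of all 14 libraries with group as the only term), with Benjamini-Hochberg adjustment over the 18676 genes tested and a threshold of 0.05; the common biological coefficient of variation was 1.47. CPM use TMM-scaled totals, logs an offset of 0.5 CPM, and each ± beside a log2 fold change is its standard error. Total counts of 10613291 to 38614639 put 3 counts at 0.06 to 0.33 CPM, so that depth limits only the lowest members. Scripts were tested on simulated counts with less spread than these data and without library sets, so that test does not cover these conditions. Pseudogenes were matched to coding sequences with BLAST 2.17.0, and lengths come from 1 principal transcript a gene.

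The members and gene lists were chosen with earlier results of these data known. Members named are those past the test (with over 10, the 5 steepest falls) and the 3 with the smallest p in each comparison; levels are also given for the 2 most abundant members of each complex and for tissue-restricted paralogs. Atp5o, Ndufs5, Uqcr11, Cox6c and Atp5h as pseudogene examples, and Uqcrfs1, Uqcrc1, Ndufv1, Ndufs1 and Atp5a1 within library set 1 or beside the first comparison, were chosen after their values were seen. The values of 1 member are not reported here on their own. Alternatives were other scalings and filters, protein-coding genes only, DESeq2 1.42.0, limma 3.58.1 (voom), a replicate block, added pseudogene counts, fewer groups, and each library left out; library sets, taken from the spelling of names, and the fits within a set were added after seeing the data.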

Additional observations from a re-analysis of the deposited data

Results flagged for a closer look

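In the 2 groups with 4 libraries, 79 sets of 4 values over 41 measures (the levels named, the complex sums and the summed levels) were checked for 1 library whose gap to the nearest other exceeds Dixon's limit, and 6 did; chance gives about 1 in 20. In CAG-GFP Pilo, complex II summed to 893.1 CPM in replicate 4 against 1152 to 1172 in the other 3, and this is the library with 9372 genes detected. Atp5b was at 1888 CPM in CAG-GFP Pilo 3 against 986 to 1039.8, and Ndufa2 at 211 CPM in the same library against 241 to 246. Cox7b2, a testis form, was at 0.197 CPM in CAG-GFP Pilo 3 and at 0 in the other 3. In DREADD Sham, Cox8b was at 6.75 CPM in replicate 1 against 0 to 0.357, and Sdhd at 559.5 CPM in replicate 3 against 318 to 357.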

How the results depend on the processing

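The number of members called depended on the model, while the medians of both comparisons with CAG-GFP Sham kept their sign under every alternative run. In CAG-GFP Pilo against CAG-GFP Sham, 0 calls became 1 with protein-coding genes only (Ndufc2), 15 with DESeq2, 45 with limma voom, 16 with only the groups compared and 50 within library set 1. In DREADD Sham against CAG-GFP Sham, 1 call became 0 with DESeq2 size factors, 0 with library totals, 4 with protein-coding genes only, 37 with DESeq2, 57 with limma voom, 20 with only the groups compared, 2 with library set as a covariate, 58 within set 1 and 0 to 0 with 1 library left out. Leaving out 1 library gave medians of −2.51 to −2.08 and −3.23 to −2.43 in these comparisons, −1.84 to 0.14 in DREADD Pilo against CAG-GFP Pilo, −1.39 to 0.53 in DREADD Pilo against DREADD Sham (1.69 with library set as a covariate, 2.03 within set 2) and 0.71 to 2.73 for the difference of the seizure effects (8 calls with DESeq2 and a median of 0.92 with library totals). Library totals moved the median of all genes from 0.41 to 1.08 and from 0.53 to 1.30 in the comparisons with CAG-GFP Sham, and turned the median of DREADD Pilo against DREADD Sham to −0.42. Between library sets, calls were 19 with pseudogene counts added and 21 to 50 with 1 library left out. Within set 1, CAG-GFP Pilo had 18 calls with library totals and 0 to 70 with 1 library left out. Within set 2, DREADD Pilo against DREADD Sham had 6 calls with DESeq2 and medians of 0.40 to 2.37, and DREADD Pilo against CAG-GFP Pilo medians of −1.07 to 0.95. Signs turned for Atp5g2 in DREADD Pilo against CAG-GFP Pilo (0.82 with library set as a covariate, 2.00 within set 2), for Uqcr10, Uqcrq and Atp5g3 in DREADD Pilo against DREADD Sham without DREADD Pilo 3 (−0.035 to 2.59, −0.082 to 2.25 and −0.55 to 2.43 over the libraries left out), and for Atp5g1 between sets with pseudogene counts added (0.10). Of 462 values of named members under an alternative, 417 kept their direction and side of the threshold. Where fewer genes or libraries do not account for a change, the cause was not tested. Counts of calls that stand here and below without a share of all genes do not single out the members.

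Same-numbered libraries of different groups did not deviate together (r of −0.47 to 0.16 over 10490 genes). The lowest values, −0.47 to −0.22, were those of CAG-GFP Pilo with DREADD Sham. In these 2 groups, same-numbered libraries belong to opposite library sets. The check therefore cannot show whether same-numbered libraries were paired. With a replicate block, 0 members were called in each of the 5 comparisons of groups, 26 between library sets, and the medians were −2.13, −2.56, −0.65, −0.36, 1.63 and −2.12.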
